A study of Mus musculus with 15 samples.

Results

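The genes described here are 10 markers by which tumor macrophages are usually sorted into an alternatively activated (M2-like) or a classically activated (M1) state, with Mrc1, the gene of the mannose receptor CD206, at their head. They were taken by name and are 10 of the 18193 genes that the arrays measured through a probe set with 1 gene symbol. Each was read from the probe set with the highest mean over 15 arrays. Each array held RNA from a piece of 1 subcutaneous tumor grown from PDA30364, a single pancreatic ductal adenocarcinoma line from a mouse whose tumor alleles were driven by Elas-tTA/TetO-Cre. Cells were injected into the flank of C57BL/6-Ly5.1 mice aged 6 to 12 weeks, and tumors were taken on day 26. The control group (n = 4) received vehicle and control IgG, the CD40 Ab group (n = 4) vehicle and the agonist antibody CD40 mIgG1, the MEKi group (n = 3) the MEK inhibitor GDC-0623 at 30 mg/kg daily with control IgG, and the MEKi/CD40 Ab or combination group (n = 4) both drugs. Each antibody was injected on days 3, 5 and 7 of treatment, with a last dose 1 day ahead of the analysis. The question put to the markers was how each drug and the combination shifted M2-like and M1 genes in whole tumors.

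Macrophages take up different programs depending on the signals around them. Interleukin-4 and interleukin-13 act through STAT6 to induce Mrc1, Arg1, Chil3 and Retnla in mouse cells, whereas interferon-γ and bacterial products induce Nos2 (iNOS). Cd163, Folr2, Lyve1 and Stab1 mark resident-type, perivascular macrophages in many tissues, and Msr1 encodes a scavenger receptor found on most macrophages. Arg1 and Nos2 enzymes compete for arginine, and tumor macrophages with high arginase are known for restraining T cells.

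The promoters of 3 members are shown first: Mrc1, which fell with MEKi and the combination, Chil3, which rose with both, and Retnla. Among the members that did not pass for the combination against control, Retnla had the largest difference. Each line holds the 250 bases before the transcription start, 5′ to 3′ on the strand of the gene, from RefSeq on build GRCm38.p6. Capitals mark matches on either strand to GAGGAA (the core bound by PU.1, the factor that specifies the myeloid lineage), TTCNNNNGAA (bound by STAT6) or TTCNNNGAA (the GAS motif).
Mrc1, chr2:14229164-14229413, + strand: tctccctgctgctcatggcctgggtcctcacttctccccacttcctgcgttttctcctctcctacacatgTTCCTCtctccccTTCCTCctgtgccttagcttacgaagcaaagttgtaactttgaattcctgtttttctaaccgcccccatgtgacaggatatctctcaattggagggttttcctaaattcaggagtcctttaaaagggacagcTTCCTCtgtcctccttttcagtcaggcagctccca
Chil3, chr3:106167565-106167814, - strand: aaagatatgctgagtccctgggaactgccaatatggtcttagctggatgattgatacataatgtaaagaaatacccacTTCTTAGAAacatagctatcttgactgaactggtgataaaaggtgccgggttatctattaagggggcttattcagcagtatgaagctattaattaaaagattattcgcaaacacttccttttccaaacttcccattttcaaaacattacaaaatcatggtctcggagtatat
Retnla, chr16:48842359-48842608, + strand: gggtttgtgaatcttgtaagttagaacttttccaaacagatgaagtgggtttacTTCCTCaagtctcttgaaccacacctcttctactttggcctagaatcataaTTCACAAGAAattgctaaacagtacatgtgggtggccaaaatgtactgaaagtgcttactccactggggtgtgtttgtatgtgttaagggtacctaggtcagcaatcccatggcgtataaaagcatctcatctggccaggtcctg

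The Mrc1 window held 3 PU.1 cores, at 180 to 175, 167 to 162 and 35 to 30 bases before the start, and no STAT6 or GAS match. Retnla had a STAT6 match, TTCACAAGAA, at 145 to 136 bases before the start and 1 PU.1 core at 196 to 191. Chil3 had a GAS match, TTCTTAGAA, at 172 to 164. None of these matches overlapped another. Of 27025 mouse promoters of the same length, 23.1% held a PU.1 core, 5.86% a STAT6 match and 7.18% a GAS match. RefSeq windows were found for 6 of the 10 members (Mrc1, Chil3, Retnla, Cd163, Stab1 and Folr2; those of Arg1, Nos2, Msr1 and Lyve1 were not used here). Among the 6, Stab1 held 1 PU.1 core and the windows of Cd163 and Folr2 had no match, and neither TGANTCA (AP-1; 6.87% of promoters) nor the NF-kB motif (7.01%) matched in any of the 6. A match is a run of letters and not a measured binding site.

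The labels, the macrophage genes and the other tissues in the tumor pieces were checked before the markers were read. All 20 pan-macrophage genes examined, among them Csf1r, Adgre1 and Cd68, had mean signals above the 25th percentile of all probe sets. Their mean log2 signal ran from 8.74 to 9.03 in controls, 9.28 to 9.50 with CD40 Ab, 8.70 to 9.87 with MEKi and 9.37 to 9.91 with the combination. It was higher than in controls by 0.79 with the combination and by 0.53 with CD40 Ab (exact permutation test, two-sided, p = 0.0286 for each, the smallest that groups of these sizes allow), and by 0.36 with MEKi (exact permutation test, p = 0.314). In whole-tumor RNA, fewer cells of a type and less RNA per cell cannot be told apart. The list mean is an RNA signal and not a count of macrophages, and how far its genes are specific to macrophages was not tested. By flow cytometry, the paper reported strongly reduced macrophage numbers in tumors given the combination. Skeletal muscle genes averaged 4.12 to 7.33 in controls, 4.21 to 6.75 with CD40 Ab, 8.29 to 11.2 with MEKi and 8.72 to 10.2 with the combination, and all 8 of them were above the 25th percentile of all probe sets. Fibroblast genes averaged 10.5 to 11.5 with MEKi against 8.73 to 9.09 in controls. The part of these tissues in the results below was not tested. The labels' animal numbers fall in a lower and an upper series: 3 controls, 2 CD40 Ab tumors and all 4 combination tumors have numbers under 10000, and 1 control, 2 CD40 Ab and all 3 MEKi tumors have numbers from 10000 on. Combination and MEKi tumors share no series, so for that comparison series and drug cannot be told apart. The interaction contains that comparison. Tumor 3 of the combination stood apart in several members, and the members' values that it moves most are given with and without it.

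Mrc1, which encodes an endocytic receptor for mannosylated ligands, was the member that fell with MEKi. Its log2 signal was 9.60, 9.32, 9.67 and 9.27 in the 4 controls, and 10.0, 9.77, 9.23 and 9.02 in the 4 CD40 Ab tumors. In the MEKi tumors it was 7.94, 8.50 and 8.04, and in the combination tumors 7.74, 7.87, 8.95 and 7.97. Every tumor that had received MEKi, with or without CD40 Ab, was below every tumor that had not. MEKi lowered Mrc1 by a log2 FC of -1.31 ± 0.16 (SE; 2.47-fold lower; 95% CI -1.67 to -0.94; limma adjusted p = 0.00164). The combination gave a log2 FC of -1.33 ± 0.24 against the same 4 controls (2.52-fold lower; 95% CI -1.87 to -0.80; limma adjusted p = 0.00592). These comparisons share their controls. With CD40 Ab alone the log2 FC was 0.04, with a 95% CI of -0.41 to 0.49 (limma adjusted p = 0.974).

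With CD40 Ab added to MEKi, Mrc1 was at a log2 FC of -0.03 against MEKi alone, with a 95% CI of -0.69 to 0.64 (limma adjusted p = 0.977). Against CD40 Ab alone the combination was lower by a log2 FC of -1.37 ± 0.29 (2.59-fold lower; limma adjusted p = 0.0331). Mrc1 was thus lower in all 3 comparisons of tumors with MEKi against tumors without it. Within the lower animal number series, the 4 combination tumors were at -1.40 against 3 controls (limma adjusted p = 0.0126) and at -1.75 against 2 CD40 Ab tumors (limma adjusted p = 0.0449). The first of these fits leaves out control 4 alone, so it is also among the leave-one-out fits below. The upper series held 1 control, at 9.27, against MEKi tumors between 7.94 and 8.50, and with the series as a covariate the MEKi log2 FC was -1.11 (limma adjusted p = 0.0793). Without combination tumor 3 the log2 FC against control was -1.61 (limma adjusted p = 0.000175). Leaving out any 1 array kept the call against controls in 8 of 8 fits for the combination and in 7 of 7 for MEKi. The call against CD40 Ab was lost in 6 of 8 such fits, without CD40 Ab tumors 1, 2 or 3 or combination tumors 1, 2 or 4, with log2 FC between -1.46 and -1.21 and limma adjusted p between 0.0544 and 0.0931.

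**Figure D1:**
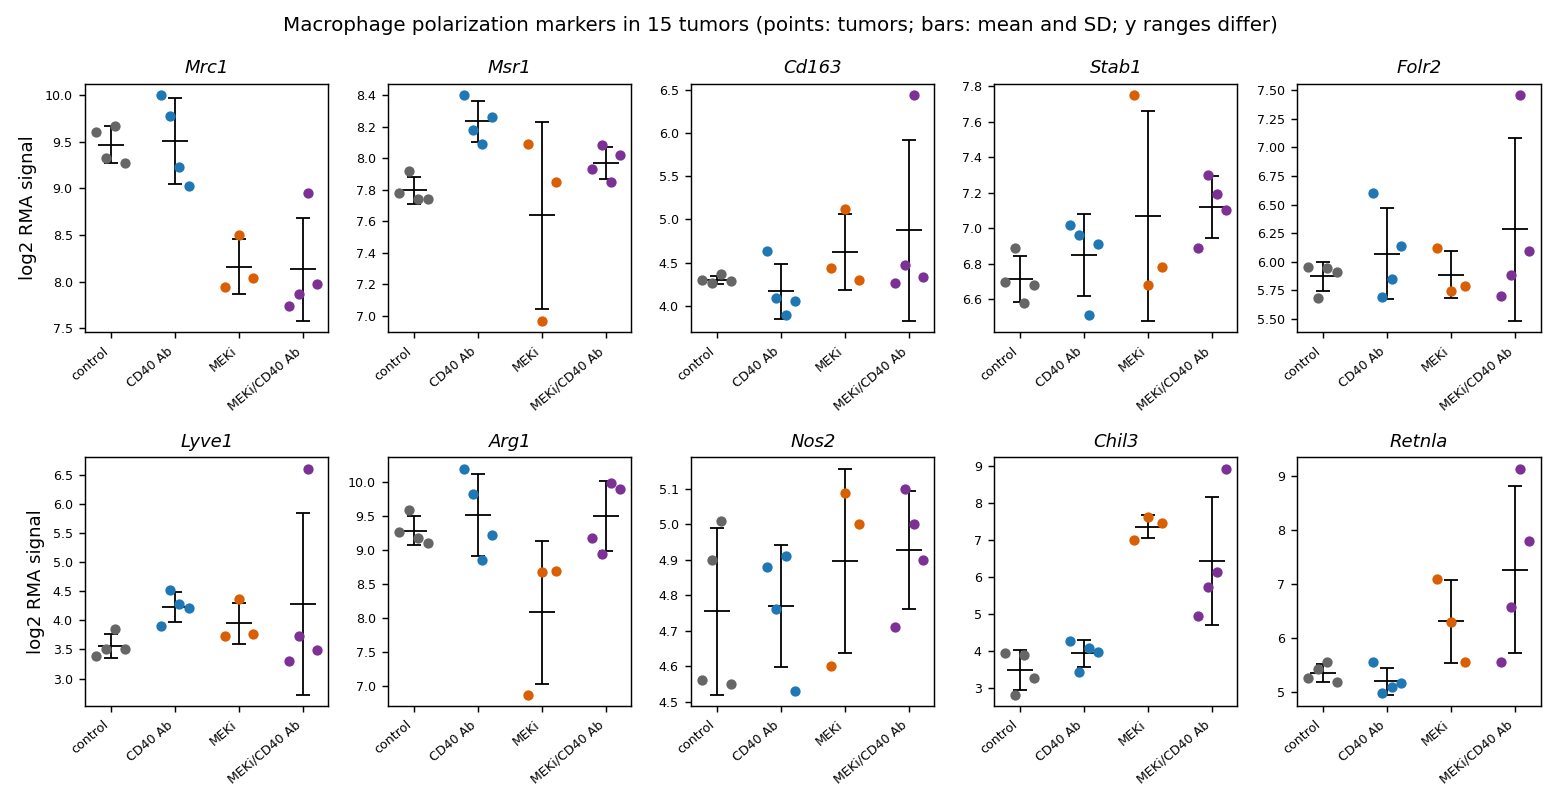
Log2 RMA signal of the 10 members in each of the 15 tumors, 1 panel per gene with its own vertical range. Points are tumors and bars are the mean and SD of a group (control, CD40 Ab and MEKi/CD40 Ab n = 4, MEKi n = 3). Mrc1 is below 9 in all 7 tumors that received MEKi and above 9 in the other 8, Chil3 has the opposite order, and combination tumor 3 is the top point for Cd163, Folr2, Lyve1 and Retnla.

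No gene of the pan-macrophage list was called lower where Mrc1 fell. Of the 20 pan-macrophage genes, 14 rose and none fell with the combination, beside 10.3% and 8.72% of all genes. Their median log2 FC was 0.89, beside -0.04 over all genes. With MEKi, 2 rose, near the 10.7% of all genes that rose, and none fell, beside 10.4% (median 0.28). With CD40 Ab 10 rose and none fell (median 0.58), beside 1.01% and 0.0495% of all genes. The difference between Mrc1 and the mean pan-macrophage signal of the same tumor was 0.59 ± 0.31 in controls (SD, n = 4), 0.10 ± 0.47 with CD40 Ab (n = 4), -1.07 ± 0.86 with MEKi (n = 3) and -1.53 ± 0.61 with the combination (n = 4). It dropped by 2.12 with the combination and 1.66 with MEKi against control, and by 1.63 with the combination against CD40 Ab. Each of these 3 differences had p = 0.0286 in an exact permutation test over tumors, two-sided, the smallest possible, and 0.130 after adjustment over the 50 tests of 10 members in 5 comparisons. None of the 50 passed after adjustment. In this exact permutation test the smallest p, 0.0286, passes the adjustment only if most of the 50 tests reach it, so this outcome says little. The same p was reached downward by Msr1 for the combination against control (-0.61) and against CD40 Ab (-0.52), and by Arg1 for MEKi (-1.56). Cd163 (-0.67) and Retnla (-0.69) reached it for CD40 Ab. Chil3 reached it upward in the same 3 comparisons as Mrc1 (2.17, 3.54 and 2.24). A difference to the list also falls when the list rises. In its own signal Msr1 was at a log2 FC of 0.18 and -0.26 in its comparisons. Cd163 and Retnla were at -0.135 and -0.155 with CD40 Ab, and Arg1 at -1.20 with MEKi.

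**Figure D2:**
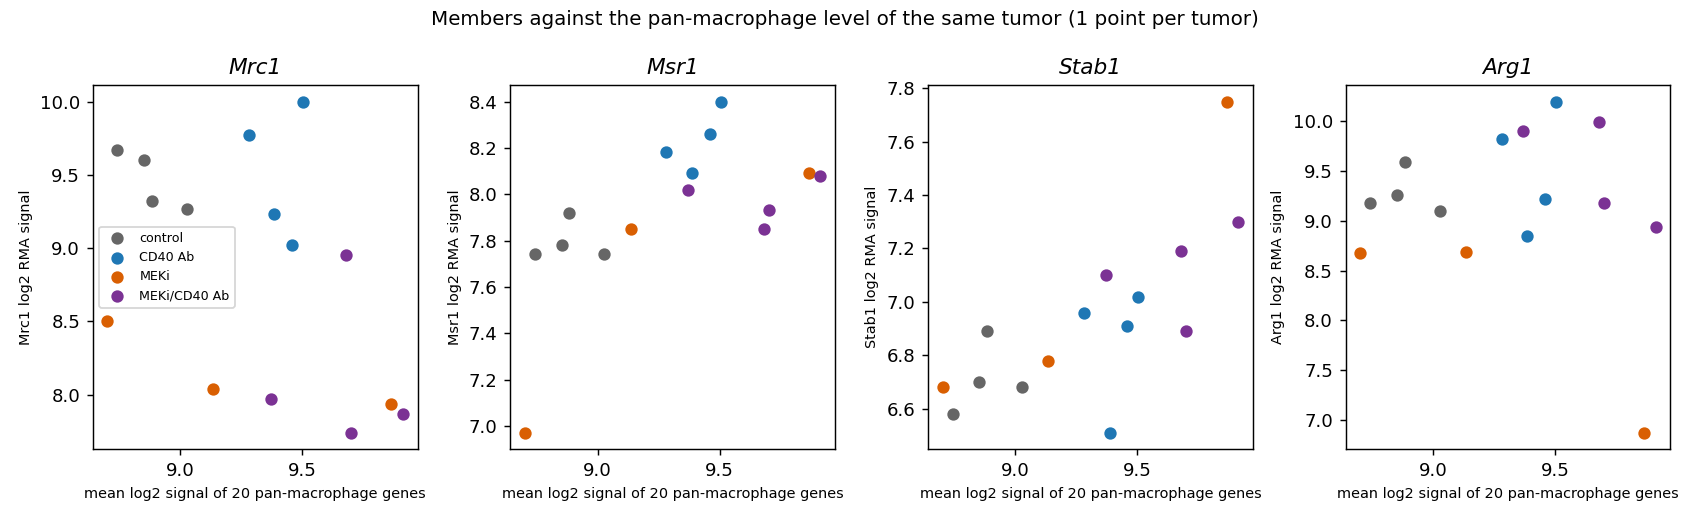
Log2 RMA signal of Mrc1, Msr1, Stab1 and Arg1 (vertical) against the mean log2 signal of 20 pan-macrophage genes in the same tumor (horizontal), 1 point per tumor, coloured by group. Msr1 and Stab1 are higher where the mean of this list is higher (Pearson r = 0.62 and 0.74 over 15 arrays), whereas the MEKi and MEKi/CD40 Ab tumors have low Mrc1 across the whole horizontal range. The list mean is not a count of macrophages.

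The other scavenger receptors among the members, Msr1, Stab1 and Cd163, had no call for lower signal in any comparison. Msr1 (class A scavenger receptor) was at 7.78, 7.92, 7.74 and 7.74 in controls and at 8.40, 8.18, 8.09 and 8.26 with CD40 Ab, so that the groups did not overlap. It rose by a log2 FC of 0.44 ± 0.08 with CD40 Ab (1.35-fold; limma adjusted p = 0.0462). MEKi tumors were at 8.09, 6.97 and 7.85 and combination tumors at 7.93, 8.08, 7.85 and 8.02, and neither group passed against control (log2 FC -0.16 and 0.18). The combination was below CD40 Ab in every tumor, by a log2 FC of -0.26 ± 0.08 that did not pass (limma adjusted p = 0.110). Leaving out any 1 of the 8 arrays ended the CD40 Ab call (limma adjusted p 0.0516 to 0.154), while the log2 FC stayed between 0.38 and 0.49. Msr1 was read by 4 probe sets. Of the other three, 1 also rose with CD40 Ab, by 0.38 (limma adjusted p = 0.0383), whereas the rest gave 0.19 and -0.01 and did not pass (limma adjusted p = 0.369 and 0.983).

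Stab1 encodes stabilin-1, a receptor for modified lipoproteins and acidic matrix proteins. It was at 6.70, 6.89, 6.58 and 6.68 in controls and at 6.89, 7.30, 7.19 and 7.10 with the combination. The lowest combination tumor equalled the highest control, and the group rose by a log2 FC of 0.41 ± 0.10 (1.33-fold; limma adjusted p = 0.0241). The call was lost without control 1, 3 or 4, or without combination tumor 2 or 3 (limma adjusted p 0.0544 to 0.0690). The lower animal number series leaves out control 4 alone, so it gave the same fit as without that control (0.40; limma adjusted p = 0.0576). MEKi tumors were at 7.75, 6.68 and 6.78, of which only tumor 1 lay above the controls, and CD40 Ab tumors at 7.02, 6.96, 6.51 and 6.91, overlapping them.

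Cd163, the receptor for haptoglobin-bound hemoglobin, was at 4.30, 4.26, 4.37 and 4.29 in controls and at 4.26, 4.47, 6.44 and 4.33 with the combination. Tumor 3 alone made the difference: the log2 FC was 0.57 ± 0.42 with it and 0.05 without it, and neither passed (limma adjusted p = 0.415 and 0.714). CD40 Ab tumors ranged from 3.90 to 4.63 and MEKi tumors from 4.30 to 5.12, and both groups overlapped the controls.

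Folr2 and Lyve1, surface proteins of perivascular and resident-type macrophages, had the same high tumor. Folr2 (folate receptor β) was at 5.95, 5.68, 5.94 and 5.91 in controls and at 5.70, 5.88, 7.46 and 6.09 with the combination. Its log2 FC was 0.41 with tumor 3 and 0.02 without it (limma adjusted p = 0.451 and 0.928). CD40 Ab tumors ranged from 5.69 to 6.60 and MEKi tumors from 5.74 to 6.12.

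Lyve1, a hyaluronan receptor that lymphatic endothelium also carries, was at 3.38, 3.51, 3.86 and 3.50 in controls and at 3.90, 4.52, 4.29 and 4.21 with CD40 Ab. All CD40 Ab tumors lay above all controls, by a log2 FC of 0.67 ± 0.14, which missed the threshold (limma adjusted p = 0.0768). It passed without CD40 Ab tumor 1 (0.78; limma adjusted p = 0.0483), and the other Lyve1 probe set gave 0.17 (limma adjusted p = 0.466). Combination tumors were at 3.30, 3.74, 6.61 and 3.49, and MEKi tumors at 3.74, 4.36 and 3.76. Without tumor 3, the combination log2 FC turned from 0.72 to -0.05 against control. Against CD40 Ab it turned from 0.06 (limma adjusted p = 0.970) to -0.72, which passed (limma adjusted p = 0.0410), as did the interaction (-1.11; limma adjusted p = 0.0363). Tumor 3 was singled out after its values were seen. The control mean, 3.56, and the combination mean without tumor 3, 3.51, were below the 25th percentile of all probe sets, 3.59. With all tumors, the other Lyve1 probe set gave 0.16 against CD40 Ab and an interaction of 0.16. Neither passed (limma adjusted p = 0.772 and 0.861). Of the lymphatic endothelium genes, 0 of 6 rose with CD40 Ab and 1 of 6, Pdpn, with the combination (0.62), and 3 of the 6 had mean signals below the 25th percentile of all probe sets.

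**Figure D3:**
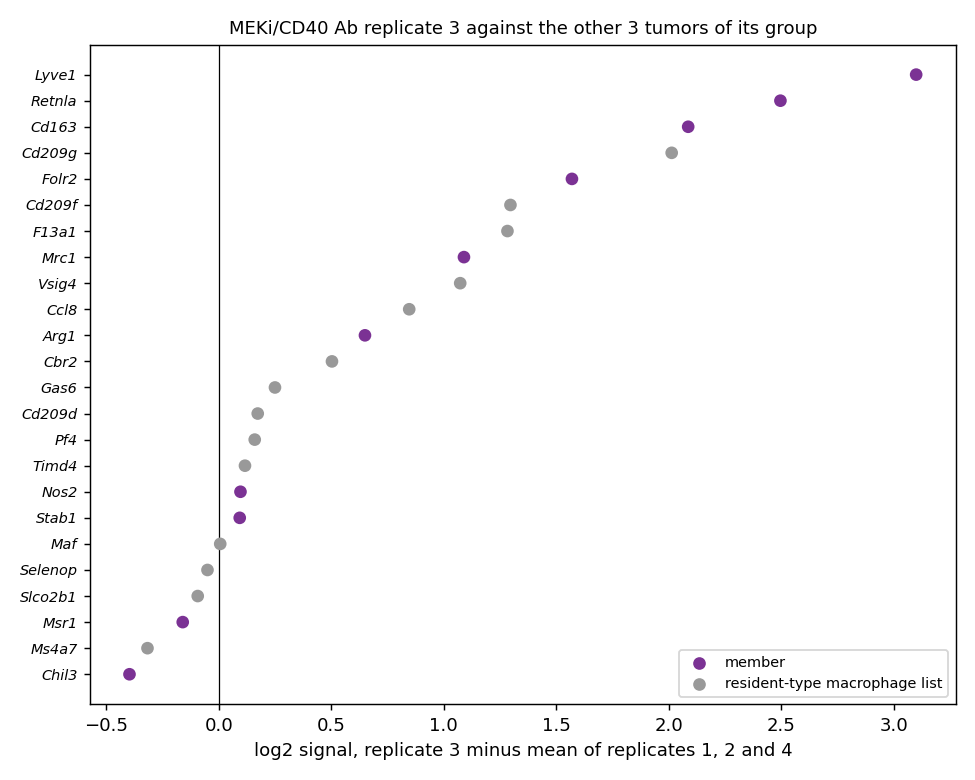
Log2 signal of combination tumor 3 minus the mean of combination tumors 1, 2 and 4 (horizontal) for the 10 members (purple) and the 14 genes of the resident-type macrophage list (grey). Lyve1 (3.10), Retnla (2.50), Cd163 (2.09), Cd209g (2.01) and Folr2 (1.57) are the rightmost, while Msr1, Ms4a7 and Chil3 lie left of 0.

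Tumor 3 of the combination had the highest signal of all 15 tumors for 4 of the 10 members (40%) and for 6 of the 14 resident-type genes (42.9%), Vsig4, Cbr2, F13a1, Ccl8, Cd209f and Cd209g, against 2.04% of all genes. None of the 20 pan-macrophage genes was highest there. Among the 4 combination tumors alone, it was the highest for 6 of 8 fibroblast genes and 6 of 8 blood endothelium genes (75% each, median difference to the other tumors 0.52 and 0.41), against 23.4% of all genes and 60% of the members. The fibroblast gene Dcn was at 10.62 there and at 8.92, 9.11 and 9.50 in the others, and the part of these tissues in the members' values was not tested. Cd209g exceeded the mean of the other 3 combination tumors by 2.01, Cd209f by 1.30, F13a1 by 1.28, Vsig4 by 1.07 and Mrc1 by 1.09 on the log2 scale. This tumor was singled out after its values were seen, so these are descriptions. Over the 15 tumors, Cd163 ran with Folr2 and with Lyve1 (Pearson r = 0.80 for each), and Folr2 with Lyve1 (r = 0.75), as a description of arrays that all include tumor 3. After the group means were taken off, Mrc1 and Cd163 had r = 0.86, with the same tumor in the set.

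Arg1 and Nos2, the enzymes that split arginine between ornithine and nitric oxide, did not pass the threshold in any comparison. Arg1 was at 9.26, 9.59, 9.18 and 9.10 in controls and at 6.87, 8.68 and 8.69 with MEKi. All 3 MEKi tumors were below all controls, by a log2 FC of -1.20 ± 0.41 (95% CI -2.15 to -0.25; limma adjusted p = 0.0882). The size depended on tumor 1: without it the log2 FC was -0.60, now past the threshold (limma adjusted p = 0.0195). CD40 Ab tumors were at 10.2, 9.82, 8.85 and 9.22 and combination tumors at 9.18, 8.94, 9.99 and 9.90. The combination was above MEKi in every tumor, by 1.42 ± 0.47 (limma adjusted p = 0.171), and 0.22 above control (limma adjusted p = 0.577). Without combination tumor 3 these values were 1.26 and 0.06, and neither passed (limma adjusted p = 0.310 and 0.894). By animal number series, Arg1 averaged 9.34 (lower) and 9.10 (upper, 1 tumor) in controls, and 10.01 and 9.035 with CD40 Ab. All combination tumors are in the lower series and all MEKi tumors in the upper. Series and drug therefore cannot be told apart for the difference of 1.42. The Arg1 interaction of 1.18 ± 0.57 did not pass (95% CI -0.03 to 2.40; limma adjusted p = 0.302). It contains the comparison of the combination with MEKi. Over 9 alternatives other than leaving out an array it ran from 0.36 to 1.21 and never passed. With a CI this wide, additivity of the drug effects was not shown.

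Nos2 lay in a narrow band, from 4.53 to 5.10 over all 15 tumors. Control tumors ranged from 4.55 to 5.01, CD40 Ab from 4.53 to 4.91, MEKi from 4.60 to 5.09 and the combination from 4.71 to 5.10. Every group overlapped every other, and the log2 FC against control was 0.17 with the combination (95% CI -0.11 to 0.45), 0.14 with MEKi (-0.22 to 0.51) and 0.02 with CD40 Ab (-0.27 to 0.30). On 1 probe set in whole-tumor RNA, the M1 marker of the list thus moved by less than the spread between tumors. Its signal, 4.83 on average, was not shown to be above background, so a change in Nos2 could have been missed.

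The genes that handle arginine around these enzymes moved in both directions. Of 10 measured, 3 rose and 2 fell with the combination (median log2 FC 0.16), 3 rose and 2 fell with MEKi (0.09), and none passed with CD40 Ab (0.13). Of all genes, 10.3% rose and 8.72% fell with the combination, and 10.7% rose and 10.4% fell with MEKi. Slc7a2, a cationic amino acid transporter that brings arginine into macrophages, rose with the combination (0.76; limma adjusted p = 0.00518) and fell with MEKi (log2 FC -0.52; limma adjusted p = 0.00512). It was higher in the combination than with MEKi by 1.28 (limma adjusted p = 0.00647) and had an interaction of 1.01 (limma adjusted p = 0.0169). Arg2, the mitochondrial arginase, rose with MEKi by 1.41 (limma adjusted p = 0.000404) and with the combination by 0.74 (limma adjusted p = 0.0333), and Oat, which turns ornithine into a proline precursor, fell by 0.29 with the combination. Nos1 and Nos3, the neuronal and endothelial synthases, passed in no comparison.

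Chil3 and Retnla, which encode the secreted M2 marker proteins Ym1 and RELMα, had higher mean signals in both groups with MEKi, opposite to Mrc1, and of these Chil3 passed the test. Chil3 was at 3.94, 2.82, 3.89 and 3.26 in controls and at 4.27, 3.42, 4.09 and 3.98 with CD40 Ab. It was at 7.01, 7.62 and 7.48 with MEKi and at 4.94, 5.73, 6.14 and 8.94 with the combination. The 7 tumors with MEKi all lay above the 8 without. The control mean, 3.48, was below the 25th percentile of all probe sets, 3.59, and was not shown to be above background, so the log2 FC and folds against control hold for the RMA signal as given. MEKi raised Chil3 by a log2 FC of 3.89 ± 0.28 (14.9-fold; 95% CI 3.24 to 4.54; limma adjusted p = 0.000186), a call that held in each of 17 other fits. The combination raised it by 2.96 ± 0.73 (7.78-fold; 95% CI 1.33 to 4.59; limma adjusted p = 0.0249). The call was lost when any 1 of the 4 controls was left out (limma adjusted p 0.0522 to 0.0680). The lower animal number series leaves out control 4 alone, so it gave the same fit as without that control (2.89; limma adjusted p = 0.0584). Granulocyte genes averaged 5.66 in controls, 6.07 with CD40 Ab, 6.83 with MEKi and 6.51 with the combination. Their part in the Chil3 values, and which cells gave the Chil3 signal, was not tested.

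Combination tumors spread over more Chil3 signal (SD 1.74) than MEKi tumors (SD 0.32). The combination was 0.93 below MEKi on average, with a 95% CI of -2.84 to 0.97 (limma adjusted p = 0.630). Tumor 4, at 8.94, was above all MEKi tumors and the other 3 combination tumors were below them. Against CD40 Ab, the combination was higher in all 4 tumors by 2.50 ± 0.71 (limma adjusted p = 0.0815). Without tumor 4 this was 1.66 and passed (limma adjusted p = 0.0292). The interaction, -1.40 ± 0.89 (limma adjusted p = 0.465), passed without tumor 4 at -2.23 (0.0226).

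Retnla was at 5.26, 5.43, 5.55 and 5.18 in controls and at 5.55, 4.98, 5.10 and 5.17 with CD40 Ab. It was at 7.09, 6.29 and 5.55 with MEKi and at 5.56, 6.57, 9.14 and 7.80 with the combination. All combination tumors were above all controls, although tumor 1 exceeded the highest control by less than the spread between controls. The log2 FC against control was 1.91 ± 0.62 with the combination (limma adjusted p = 0.0710) and 0.96 ± 0.31 with MEKi (limma adjusted p = 0.0723), and neither passed. Without combination tumor 3 the first was 1.29 (limma adjusted p = 0.0832), and without combination tumor 1 it was 2.48 and passed (0.0140). Against CD40 Ab the combination was higher in every tumor by 2.07 ± 0.63 (limma adjusted p = 0.0968), and without combination tumor 1 by 2.64, which passed (limma adjusted p = 0.0385). Without combination tumor 3 it was higher by 1.44 (limma adjusted p = 0.103). The MEKi difference passed without MEKi tumor 3 (1.34; limma adjusted p = 0.0134).

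**Figure D4:**
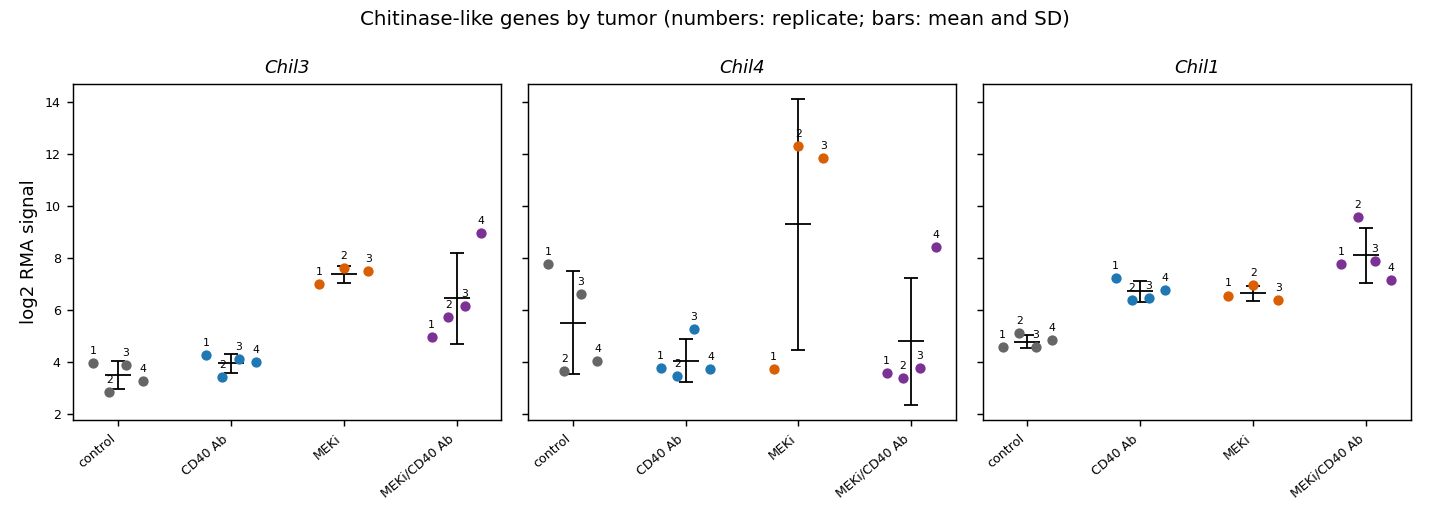
Log2 RMA signal of the chitinase-like genes Chil3, Chil4 and Chil1 in each tumor, with the replicate number beside each point and the mean and SD of each group as bars. Chil3 is higher in all 7 tumors with MEKi, Chil4 is near 12 in MEKi tumors 2 and 3 and near 4 in MEKi tumor 1, and Chil1 is higher than in controls in every treated tumor.

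Close relatives of the members gave a mixed picture. Of 10 relatives measured, 3 rose and none fell with the combination, 3 rose with MEKi and 1 rose with CD40 Ab. Of all genes, 10.3%, 10.7% and 1.01% rose in these comparisons. Chil1, the chitinase-like protein of inflamed tissue and tumors also known as YKL-40, was at 4.58, 5.09, 4.58 and 4.82 in controls and had means of 6.71 with CD40 Ab, 6.63 with MEKi and 8.10 with the combination. It rose by 1.94, 1.87 and 3.33 in these groups (limma adjusted p = 0.0186, 0.000466 and 0.00121), and every treated tumor exceeded every control. Its interaction of -0.48 did not pass (limma adjusted p = 0.732).

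Chil4 (Ym2), a near-identical copy of Chil3, was at 3.71, 12.3 and 11.8 with MEKi and at 3.58, 3.38, 3.75 and 8.43 with the combination. Controls were at 7.75, 3.65, 6.59 and 4.02, and no comparison passed. Signal of these copies may be shared between their probe sets, so the values of both are uncertain. In MEKi tumor 1 Chil3 was at 7.01 with Chil4 at 3.71, and in control 1 Chil4 was at 7.75 with Chil3 at 3.94.

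Mrc2, the collagen receptor Endo180 of fibroblasts and some macrophages, rose by 1.90 with MEKi and by 0.81 with the combination (limma adjusted p = 0.00271 and 0.00145), opposite to Mrc1. Fibroblast genes rose beside it, 7 of 8 with MEKi and 3 of 8 with the combination, and their part in the Mrc2 values was not tested. Retn, at 5.55 to 6.06 in controls and 5.72 to 8.40 with the combination, did not pass (log2 FC 1.09; limma adjusted p = 0.153), and neither did Retnlb, Folr1 or Stab2.

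**Figure D5:**
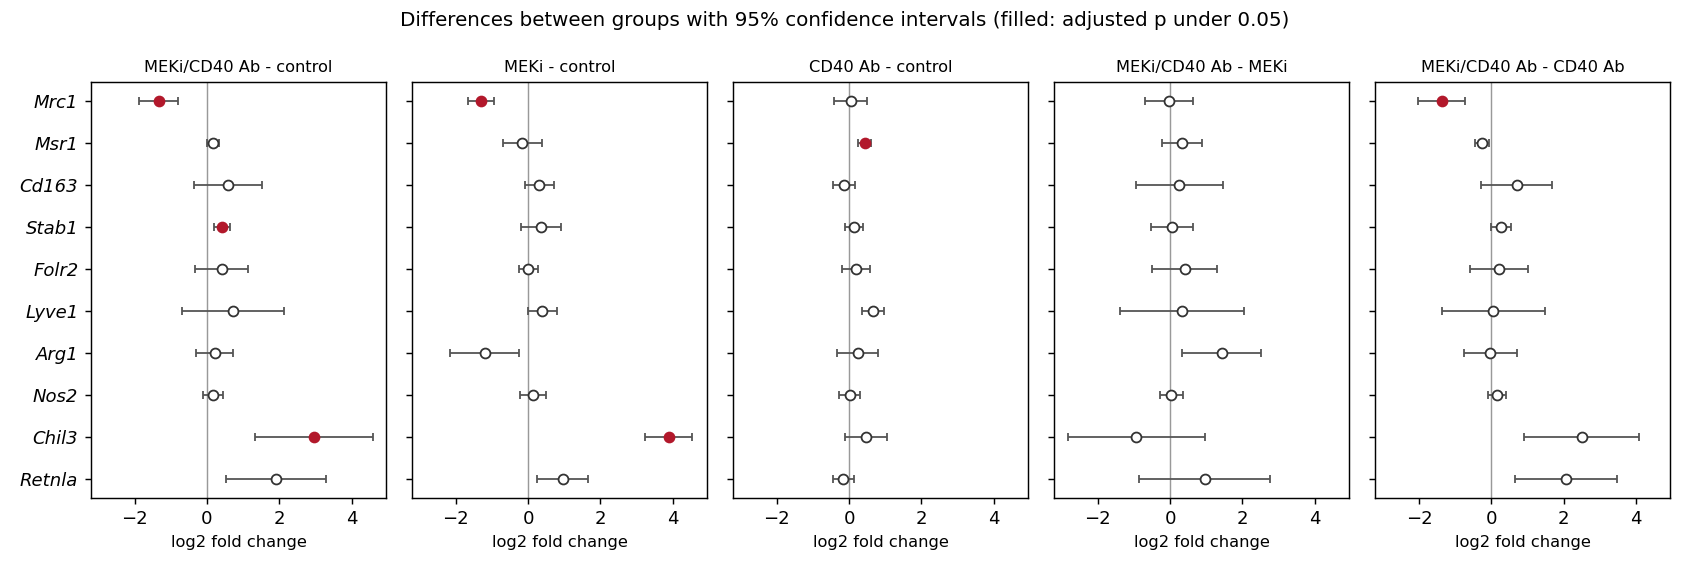
Log2 FC of the 10 members in the 5 comparisons of groups, with 95% confidence intervals from the limma fit. Filled points passed an adjusted p of 0.05: Mrc1, Stab1 and Chil3 for the combination against control, Mrc1 and Chil3 for MEKi against control, Msr1 for CD40 Ab against control and Mrc1 for the combination against CD40 Ab.

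Counted over the list, 2 members rose and 1 fell with the combination against control, while 10.3% of all genes rose and 8.72% fell. With MEKi against control, 1 rose and 1 fell, beside 10.7% and 10.4% of all genes. With CD40 Ab against control, 1 rose and none fell, beside 1.01% and 0.0495%. For the combination against MEKi no member passed in limma, 1 had an unadjusted p under 0.05 (Arg1), and 1.38% of all genes rose and 2.65% fell. For the combination against CD40 Ab, none rose and 1 fell, beside 3.69% and 2.52%. No interaction passed in limma and none had an unadjusted p under 0.05, where 2% of all genes were above and 2.56% below additivity. With so few members called beside these shares, the counts say nothing particular about the list. The median log2 FC of the 10 members was 0.41 for the combination, 0.23 for MEKi and 0.17 for CD40 Ab against control, beside -0.04, -0.04 and -0.0025 over all genes.

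Genes of the interleukin-4 axis did not move as 1 group with the combination: 5 of 16 rose, 2 fell and 9 did not pass (median log2 FC 0.30). Ccl22, a chemokine for regulatory T cells, rose by 1.24, Clec7a (the β-glucan receptor Dectin-1) by 1.00 and Tgm2, a transglutaminase, by 0.85. Mgl2, a galactose lectin of M2-like macrophages, fell by 0.78 and Il4ra, the receptor chain for interleukin-4, fell by 0.26. Over all genes 10.3% rose and 8.72% fell with the combination. With MEKi 2 rose (median 0.01), beside 10.7% of all genes, and with CD40 Ab none passed (median 0.14).

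Every gene of the interferon-γ axis that passed against control was higher. With the combination 10 of 19 rose and none fell (median log2 FC 0.63), where 10.3% of all genes rose and 8.72% fell. A rise was called for 9 with MEKi (median 0.55) and for 4 with CD40 Ab (median 0.45), beside 10.7% and 1.01% of all genes. Acod1, which makes itaconate in activated macrophages, rose by 2.51 with the combination, and the chemokines Cxcl10 and Cxcl9 rose by 2.15 and 1.93. Nos2 had no call in any comparison, like 9 of these 19 genes with the combination and 10 with MEKi.

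The resident-type list showed 4 of 14 genes up and 1 down with the combination (median log2 FC 0.34), beside 10.3% and 8.72% of all genes. Cbr2, a carbonyl reductase, was at 5.67 to 6.22 in controls and at 8.17 to 9.04 with the combination (2.78). Gas6, a ligand for clearance of dying cells, rose by 1.71 and the chemokine Ccl8 by 1.30. Pf4, a platelet and macrophage chemokine, fell by 0.54. With MEKi 3 rose and 1 fell (median 0.13), beside 10.7% and 10.4% of all genes, and with CD40 Ab none passed (0.02). In MEKi tumors 1, 2 and 3 Cbr2 was at 7.67, 8.95 and 7.60, with pan-macrophage means of 9.87, 8.70 and 9.14. Which cells gave the signals of this list was not tested. Of the other scavenger and lectin receptors, 5 of 12 rose and 1 fell with the combination (median 0.47), led by the lipid scavenger Cd36 (1.51) and the C-type lectins Clec4d (0.86) and Clec4n (0.81), while 3 rose and 1 fell with MEKi (0.32) and none passed with CD40 Ab (0.07).

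Markers of other cell types moved too, and their part in the members' values was not tested. With the combination 7 of 8 skeletal muscle genes rose (median log2 FC 2.92), as did 7 of 11 granulocyte genes (0.75), 3 of 8 fibroblast (0.46), 2 of 8 epithelial (0.11), 1 of 8 blood endothelium (0.23) and 1 of 8 mast cell and eosinophil genes (-0.06). Adipocyte genes had no call (0 of 4) and 1 of 8 keratinocyte genes fell. With MEKi, 3 of 8 muscle, 5 of 11 granulocyte, 7 of 8 fibroblast, 5 of 8 keratinocyte and 4 of 8 mast cell and eosinophil genes rose, and with CD40 Ab no gene of these lists passed. Of all genes, 10.3% rose with the combination, 10.7% with MEKi and 1.01% with CD40 Ab. Of the 8 mast cell and eosinophil genes, 4 had mean signals below the 25th percentile of all probe sets.

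The genes whose signal ran most like Mrc1 over the 15 tumors were Inpp4b, a phosphoinositide phosphatase (Pearson r = 0.97), Dynap (0.95), the zinc exporter Slc30a4 (0.94), Mcpt8, a protease of basophils (0.94), and the TRAIL decoy receptor Tnfrsf23 (0.94). Mcpt8 averaged 9.10 in controls, 8.80 with CD40 Ab, 6.61 with MEKi and 6.46 with the combination, and Inpp4b averaged 6.47, 6.50, 5.05 and 4.91 in the same order. At the other end were Slc43a2, an amino acid transporter (r = -0.97), Pkhd1 (-0.96), the cadherin Celsr2 (-0.95), the calcium pump Atp2a2 (-0.94) and the histone methyltransferase Kmt2c (-0.94). All 10 had, like Mrc1, group means that were closer between control and CD40 Ab, and between MEKi and the combination, than between these pairs, so these correlations describe the 4 groups as much as the tumors. Among the members, Chil3 ran most against Mrc1 (r = -0.74), and within groups that correlation was 0.12.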

How the data were processed

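The members and gene lists were chosen with earlier results of these data known. Tumor RNA was hybridised to Affymetrix mouse genome arrays, 1 per tumor, and the deposited values are log2 signals that the authors normalized by RMA in Chipster, so the level of a probe set cannot be set against another. The table had 45101 rows, of which 64 control rows were left out. Gene symbols came from the platform annotation (34945 probe sets with 1 symbol, 932 with several, 9160 with none). Array medians lay between 5.16 and 5.24. Groups were taken from the sample labels, and p-values measure the spread between these tumors. Each pair of groups was fitted in limma 3.58.1 (R 4.3.3; lmFit and eBayes, two-sided) on the arrays of these groups, and all 15 arrays were used for the interaction, (MEKi/CD40 Ab minus MEKi) minus (CD40 Ab minus control). P-values were adjusted by Benjamini-Hochberg over 45037 probe sets with a threshold of 0.05. Member minus pan-macrophage level was tested by exact permutation over tumors. The scripts were tested on simulated data. Of 172 list genes 165 were matched. Genes were named by rule: all members and their relatives, up to 3 per other list with the largest change past the threshold for the combination against control (or the 2 highest where none passed), and the 5 most and 5 least like Mrc1. A few more were named after their values were seen, to account for genes that fell or stood out in tumor 3. Alternatives were all arrays in 1 fit, array weights, a trended robust prior, quantile normalization, median centring, other probe set rules, the replicate number as a block, the animal number series and leaving out each array. Figures were drawn with matplotlib 3.10.9. Some details of the cell line's genotype are not reported here.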

Additional observations from a re-analysis of the deposited data

Results flagged for a closer look

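In 63 groups of 4 tumors (members, relatives and the mean pan-macrophage level), 5 had a highest or lowest tumor farther from its nearest neighbour than Dixon's 95% limit allows, and chance alone marks about 1 in 20 groups. Among combination tumors, tumor 3 stood apart in Cd163, at 6.44 with the next at 4.47, and in Lyve1, at 6.61 with the next at 3.74. Among controls, tumor 2 had the low Folr2 value, 5.68, with the next at 5.91. Chil4, the near-identical copy of Chil3, was high in CD40 Ab tumor 3 (5.27, next 3.74) and in combination tumor 4 (8.43, next 3.75), the tumor that also had the highest Chil3 signal, 8.94. The relation between these Chil4 and Chil3 values was not tested.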

How the results depend on the processing

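Mrc1 was below control in all 19 alternatives for the combination (log2 FC -1.61 to -1.20, all past the threshold) and in all 17 for MEKi (-1.48 to -1.11), of which 16 passed and the fit with the animal number series as a covariate did not. Chil3 passed for MEKi in 17 of 17 (3.67 to 4.11) and for the combination in 12 of 19 (2.13 to 3.46). For the combination against control, the series as covariate, numbers under 10000 only and leaving out control 4 are the same fit. Each of these is counted in the 19, so the 19 are not all distinct. The number of members called against control was 1 for the combination with the series as covariate and with numbers under 10000 only, and 1 for MEKi with the covariate. For CD40 Ab it was 0 with all 15 arrays in 1 fit, further quantile normalization, the mean over probe sets and numbers under 10000 only (Msr1 0.44, 0.43, 0.25 and 0.48), and 2 with array weights. With all 15 arrays it was 1 for the combination against MEKi (Arg1) and 3 against CD40 Ab (Mrc1, Chil3, Retnla), and Retnla passed for the combination against control (limma adjusted p = 0.0369). With array weights it was 0 against CD40 Ab (Mrc1 -1.22, limma adjusted p = 0.0545). Stab1 with all 15 arrays had limma adjusted p = 0.200.

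Signs turned in small differences only. Against control these were Folr2 for MEKi (-0.058 with weights, -0.035 with quantile normalization, -0.00083 with centring, -0.027 with the series), and for CD40 Ab Mrc1 (-0.045 with weights) and, with numbers under 10000 only, Cd163 (0.05) and Nos2 (-0.0033). With weights, Nos2 turned against MEKi (-0.044) and Arg1 against CD40 Ab (0.077). Interactions turned for Mrc1 (0.0043), Msr1 (0.034) and Stab1 (0.13) with weights, Msr1 with the mean over probe sets (0.029), and Nos2 (-0.058 with weights, -0.017 with quantile normalization, -0.0075 with centring, -0.20 with the series). The cause was not tested. Over the same kinds of alternatives, the Mrc1 interaction, -0.07 in the main fit, ran from -0.75 to 0.026. The Arg1 interaction, 1.18 in the main fit, ran from 0.36 to 1.21. Neither passed in any of them.

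Leaving out 1 array at a time gave 1 to 4 called members for the combination and 2 to 3 for MEKi against control, 0 to 1 for CD40 Ab, 0 for the combination against MEKi, 0 to 2 against CD40 Ab and 0 to 1 interactions. Signs turned for Lyve1 (-0.053 to 1.05) in the combination against control, Msr1 (-0.39 to 0.18) and Folr2 (-0.11 to 0.085) with MEKi, and Mrc1 (-0.13 to 0.20) and Nos2 (-0.053 to 0.10) with CD40 Ab. Against MEKi they turned for Mrc1 (-0.30 to 0.14), Cd163 (-0.27 to 0.51), Stab1 (-0.15 to 0.39), Lyve1 (-0.44 to 0.66) and Nos2 (-0.12 to 0.13), while Msr1 (0 to 0.56) reached 0, and against CD40 Ab for Folr2 (-0.18 to 0.41), Lyve1 (-0.72 to 0.38) and Arg1 (-0.24 to 0.21). Interactions turned for Mrc1 (-0.34 to 0.10), Msr1 (-0.44 to 0.12), Cd163 (-0.13 to 0.64), Stab1 (-0.28 to 0.25), Folr2 (-0.19 to 0.39) and Nos2 (-0.13 to 0.11).

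Replicate numbers did not pair the tumors: over 21 pairs of arrays with the same number, deviations from the group means correlated between -0.36 and 0.24, and 4 of 15 arrays correlated best with their own number. With the replicate number as a block, 0 members were called for CD40 Ab against control (Msr1 0.44, limma adjusted p = 0.0950), 1 for the combination against MEKi (Chil3 -1.77; 0.0434) and 0 against CD40 Ab (Mrc1 -1.37; 0.0807), Retnla passed for the combination against control (limma adjusted p = 0.0492), and the signs of Mrc1 against MEKi (0.027) and in the interaction (0.026) turned. The table carries no detection calls, so a dim probe set such as that of Lyve1 has no bound on its background.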
